A study of Mus musculus with 15 samples.

Results

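The thoracic and the abdominal aorta of mice on standard chow were compared across all measured genes, with 4 arrays of each segment, which were 8 of the 15 arrays of a study of dietary phosphate. The arrays were selected by their labelled segment and diet alone, and no expression value entered that choice. The animals were DBA/2NCrl mice, an inbred strain, aged 8 weeks when the diets began. Standard chow (SCD in the labels) held 7.0 g of phosphorus per kg of feed and was given for 5 days. The high-phosphate diet (HPD) held 20.2 g per kg, was given equally long, and served here only as a second set of 4 abdominal and 3 thoracic arrays. The labels name no genetic alteration, and give neither the sex of the mice nor where along the vessel the segments were cut. Each array is labelled a biological replicate, but whether a thoracic and an abdominal segment came from the same mouse, and whether tissue was pooled, is not stated, so the p-values measure the spread between these arrays.

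The aortic wall is built of smooth muscle cells set between sheets of elastic fibre, lined by endothelium and wrapped in adventitia with fibroblasts, nerves and fat. The thoracic aorta leaves the heart, is rich in elastic sheets and is surrounded by brown fat, whereas the abdominal aorta is more muscular and runs beside sympathetic ganglia and lymph nodes. Smooth muscle cells of different segments descend from different embryonic sources, and cells of the trunk keep the Hox gene pattern of their place along the body axis into adult life.

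The unit throughout is the log2 intensity of 1 probe set per gene, and a difference is thoracic minus abdominal, so that a positive value means a higher signal in the thoracic segment. Levels are given as mean ± SD over 4 arrays, array values in the order of arrays 1 to 4, and differences ± SE from limma. A gene was called when its limma p, two-sided and adjusted by the Benjamini-Hochberg method over 22180 genes, was below 0.05. Pearson's r across probe sets was 0.9742 to 0.9826 among the abdominal arrays, 0.9817 to 0.9864 among the thoracic ones and 0.9636 to 0.981 between the segments.

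Every chow array carried high signals of aortic smooth muscle, with Acta2 at 11.23 or above, and several also carried markers of neighbouring tissue. The mean of 145 ganglion genes was 6.78, 6.57, 7.62 and 7.41 in the abdominal arrays and 5.76 to 5.85 in the thoracic ones. Of them 88 were called lower in the thoracic segment (60.7%, against 3.02% of all genes) and 0 higher. Their most different member was Snap25, a protein of neuronal vesicle fusion, at 10.48, 10.03, 11.58 and 11.27 in the abdominal arrays and 5.03, 4.67, 4.88 and 4.97 in the thoracic ones. The mean of 94 heart muscle genes was 6.04 to 6.34 in the abdominal arrays and 6.85, 6.71, 7.14 and 6.95 in the thoracic ones. Limma called 36 of them higher (38.3%, against 1.76% of all genes) and 0 lower. Myl7, the light chain of atrial myosin, was at 4.60, 5.00, 4.90 and 4.38 against 9.09, 8.43, 9.87 and 9.71. The mean of 154 lymph node genes was 5.84, 6.91, 6.14 and 7.35 in the abdominal arrays and 5.78 to 5.97 in the thoracic ones. Only Glycam1 of that list, a glycoprotein of lymph node venules, was called (8.95, 12.59, 12.17 and 12.69 against 6.64, 6.35, 6.76 and 6.66). The abdominal arrays thus differed among themselves, with ganglion genes higher in arrays 3 and 4 and lymph node genes higher in arrays 2 and 4. Array 1 had a lymph node mean within the thoracic range, but its Glycam1 value (8.95) lay above every thoracic one. These lists were chosen with earlier results of these data known, so their shares of called genes may in part follow from that choice. In bulk tissue, fewer cells of a type and less RNA per cell cannot be told apart.

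**Figure D1:**
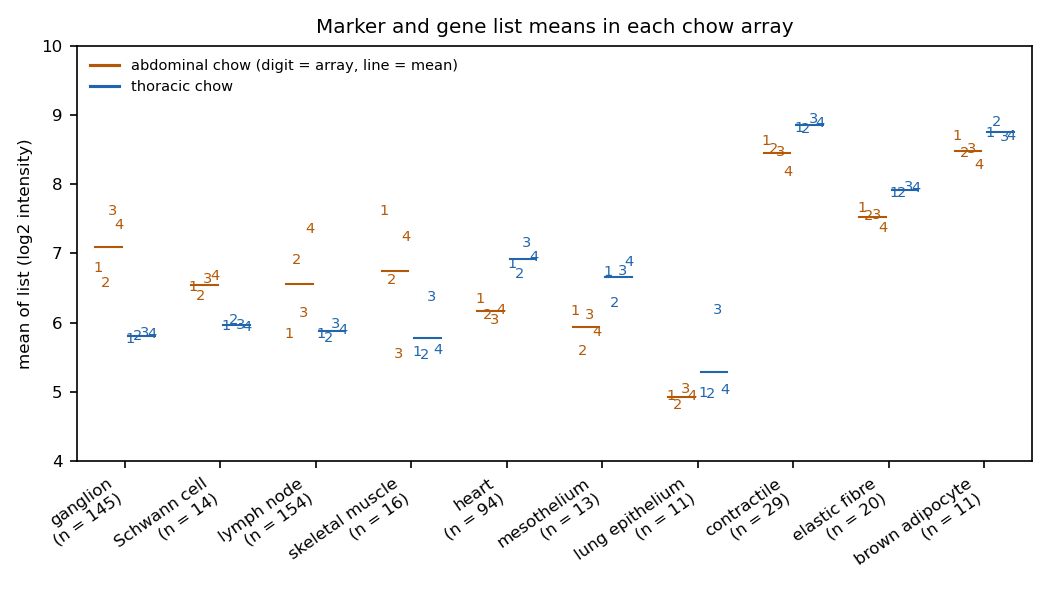
Mean log2 intensity of the measured genes of 10 marker and gene lists (n = number of genes) in each chow array, with digits for the 4 arrays of a segment and lines for the segment mean. The ganglion mean was 6.57 to 7.62 in abdominal and 5.76 to 5.85 in thoracic arrays, and the lung epithelium mean stood out in thoracic array 3 (6.18).

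Further lists of neighbouring cells differed between segments or between single arrays. Of 14 Schwann cell genes, the glia that wrap peripheral nerve, 6 were called lower (42.9%, against 3.02% of all genes) and 0 higher. Their list means were 6.38 to 6.68 in the abdominal and 5.94 to 6.03 in the thoracic arrays. The means of 13 mesothelium genes were 5.59 to 6.18 against 6.29 to 6.87. The 16 skeletal muscle genes had the largest negative median of these lists, -0.998, with 1 called lower (6.25%). They averaged 7.62, 6.61, 5.54 and 7.24 in the abdominal arrays and 5.58, 5.54, 6.38 and 5.60 in the thoracic ones. Liver genes averaged 5.90 in thoracic array 1 and 6.52 in thoracic array 4, against 5.29 to 5.46 in the other chow arrays. The list means of vascular endothelium overlapped between the segments (7.55 to 7.78 and 7.57 to 7.69), as did those of adventitial fibroblasts (8.53 to 8.84 and 8.72 to 8.86), macrophages and pan-adipocyte genes. The lung epithelium mean was 6.18 in thoracic array 3, against 4.97 to 5.03 in the other thoracic arrays. Limma called 0 of 15 macrophage and 0 of 14 pan-adipocyte genes, of which 0 and 1 had an unadjusted p below 0.05. Over all 22180 genes 4311 had such a p, and 4.78% were called.

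In all, 1061 of 22180 genes were called (4.78%), of which 391 were higher (1.76%) and 670 lower (3.02%) in the thoracic segment. The 2 groups did not overlap in 1000 of the 1061, or 4.51% of all genes, and in 12% of all genes whether called or not. A change of at least 2-fold was seen in 45 of the higher and 252 of the lower genes. Ganglion, heart and lymph node lists held 125 of the called genes, which left 936, 355 higher and 581 lower. The median difference over all genes was 0.03. The 581 lower genes averaged 7.04, 6.96, 7.58 and 7.53 in the abdominal arrays, so that their mean was also highest in arrays 3 and 4, where the ganglion mean was highest. The part of ganglion tissue in those 581 was not tested.

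**Figure D2:**
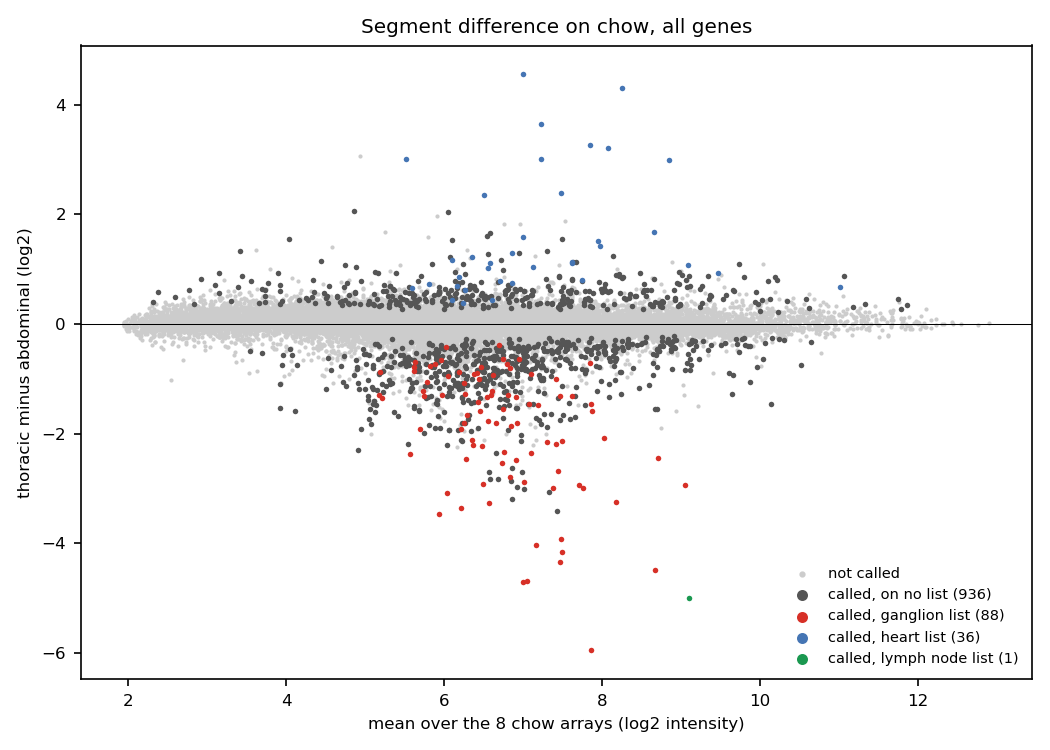
Thoracic minus abdominal difference (log2) against the mean log2 intensity over the 8 chow arrays for 22180 genes, with called genes coloured by marker list. Genes lower in the thoracic segment reached larger differences than higher ones, and 88 of the called genes were on the ganglion list, 36 on the heart list and 1 on the lymph node list.

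Hox genes encode the transcription factors that mark position along the body axis. Of 36 members 6 were called lower in the thoracic segment (16.7%, against 3.02% of all genes) and 0 higher (against 1.76%). The median over the 36 was 0.02, close to the 0.03 over all genes. The called members were Hoxc6, Hoxc8, Hoxc9, Hoxc10, Hoxa9 and Hoxd8, from the middle and posterior part of their clusters. Hoxc8 (probe set 17315514) stood at 8.41, 8.70, 8.60 and 8.46 in the abdominal arrays and 7.36, 7.56, 7.28 and 7.09 in the thoracic ones. Every thoracic array lay below the lowest abdominal one. The difference was -1.22 ± 0.12, 2.33-fold lower in the thoracic segment (limma, Benjamini-Hochberg adjusted p = 4.13e-05).

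Hoxc10 was measured at 6.69, 6.31, 6.12 and 6.13 in the abdominal arrays and 5.12, 5.03, 5.55 and 5.72 in the thoracic ones, a difference of -0.96 ± 0.17 (adjusted p = 0.00451). Hoxa9 stood at 7.06, 7.36, 7.16 and 7.01 against 6.31, 6.39, 6.12 and 6.27 (-0.87 ± 0.11, adjusted p = 0.00032). The groups did not overlap for either gene. Hoxc6 differed by -0.67 ± 0.10, Hoxc9 by -0.58 ± 0.069 and Hoxd8 by -0.44 ± 0.11, with adjusted p of 0.00165, 0.0002 and 0.0279. The lower-numbered members of the Hoxc cluster lay near 0, Hoxc4 at -0.15 ± 0.097 and Hoxc5 at -0.09 ± 0.12, and neither was called. Several Hoxb genes had positive differences that were not called: Hoxb4 at 6.50, 6.24, 6.07 and 5.91 against 6.72, 6.64, 6.73 and 6.59 (0.49 ± 0.16, adjusted p = 0.109), Hoxb2 0.44 ± 0.17 and Hoxb7 0.36 ± 0.16. The Hoxb4 and Hoxb2 arrays of the 2 segments did not overlap, while those of Hoxb7 and of Hoxa5 (0.20 ± 0.11) did. The other called members kept their call with any 1 array left out, while Hoxd8 lost it without abdominal array 3 or 4 or thoracic array 1, 2 or 4 (adjusted p up to 0.0895). With adipocyte list means as covariates Hoxc10 was no longer called.

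**Figure D3:**
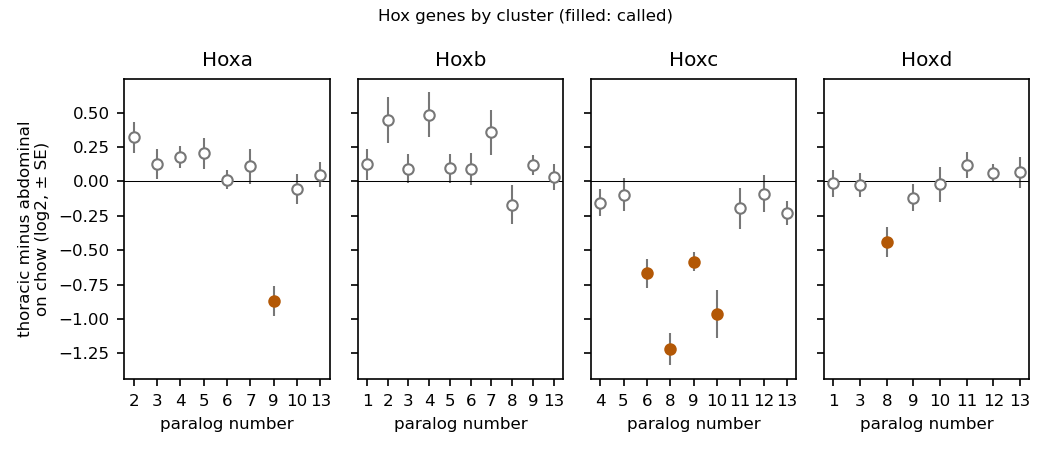
Thoracic minus abdominal difference on chow (log2, bars are SE from limma) of 36 Hox genes in 4 panels, 1 per cluster, ordered by paralog number, with filled points for called genes. The called genes carry numbers 6 to 10 and lie between -0.44 and -1.22, while the other 30 lie between -0.23 and 0.49.

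Of 79 other transcription factors known for regional patterning, 3 were called higher and 3 lower, with a median of 0.07. These were shares of 3.8% each, against 1.76% and 3.02% of all genes. Osr1, a zinc finger factor of intermediate and lateral mesoderm, was at 8.98, 8.78, 8.88 and 8.41 in the abdominal and 9.26, 9.33, 9.75 and 9.50 in the thoracic arrays (0.69 ± 0.19, adjusted p = 0.045). Tbx18, a T-box factor of the heart's sinus region and of mural cells, was higher by 0.54 ± 0.12 and Mecom, a zinc finger factor, by 0.36 ± 0.090. Nr2f2, the orphan receptor COUP-TFII that is known for its role in veins, stood at 7.13, 7.42, 7.13 and 7.13 against 6.66, 6.93, 6.69 and 6.73 and differed by -0.45 ± 0.098 (adjusted p = 0.0162). Tshz2, a teashirt zinc finger factor of the trunk, differed by -0.34 ± 0.075, and by -0.16 on its second probe set. Tfap2b, a factor of neural crest and sympathetic neurons, was lower by the widest margin, 6.16, 6.09, 7.51 and 7.19 against 4.98, 4.60, 4.59 and 4.85 (-1.98 ± 0.28, adjusted p = 0.000981). Its abdominal values were highest in arrays 3 and 4, as the ganglion mean was, and the part of ganglion tissue in it was not tested. Gata6, a factor of vascular smooth muscle, was not called (0.31 ± 0.13, adjusted p = 0.2). Osr1 and Mecom lost their calls in every fit with 1 array left out except that without abdominal array 1 (adjusted p up to 0.157 and 0.116), Tbx18 without abdominal array 3 or 4 or thoracic array 1, 2 or 3 (0.0751), Nr2f2 without thoracic array 1 (0.0546) and Tshz2 without thoracic array 1 or 4 (0.0582).

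Of 29 measured smooth muscle contractile genes, 12 were called higher and 0 lower in the thoracic segment (41.4%, against 1.76% of all genes called higher), while 17, Myh11 and Tagln among them, were not called. By sign alone, 28 of 29 had a positive difference, and the list's median difference was 0.44, against 0.03 over all genes. The called members were Acta2, Cnn1, Smtn, Synpo2, Itga8, Pdlim3, Pdlim7, Flna, Mylk, Myl6, Tpm1 and Mrvi1. Genes of this group are known targets of serum response factor, which binds a motif called the CArG box, so their promoters were searched. In RefSeq's mouse assembly GRCm38.p6, an exact box (CC, 6 bases of A or T, GG) lay within 250 bases before the gene start in 439 of 27025 genes (1.62%) and an exact or near box, with 1 of the 6 middle bases a C or G, in 2643 (9.78%). The motif reads as itself on the opposite strand, so both were covered. Promoters were listed for 25 contractile genes, of which 5 held an exact box and 8 an exact or near one. Of the 12 called genes 1 held an exact box, Myl6, and 2 more, Acta2 and Pdlim3, a near one. Their boxes are shown 5′ to 3′ on the strand of the gene, with the box in capitals and up to 45 bases on each side, since they are the sequences in the called genes that carry the motif.
Acta2 distal box, chr19:34255403-34255502, minus strand: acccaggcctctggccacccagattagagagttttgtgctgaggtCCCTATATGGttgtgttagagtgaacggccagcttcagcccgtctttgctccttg
Acta2 proximal box, chr19:34255374-34255452, minus strand: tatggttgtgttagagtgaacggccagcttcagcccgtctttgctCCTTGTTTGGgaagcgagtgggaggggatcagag
Myl6, chr10:128493010-128493104, minus strand: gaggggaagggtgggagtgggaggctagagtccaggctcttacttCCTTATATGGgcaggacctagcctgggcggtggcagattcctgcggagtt
Pdlim3, chr8:45885342-45885441, plus strand: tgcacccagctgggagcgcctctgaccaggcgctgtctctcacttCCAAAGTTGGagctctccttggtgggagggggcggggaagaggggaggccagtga
The other 9 called genes had no such letters in this window, which says nothing of boxes elsewhere or of binding.

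Acta2, the actin of smooth muscle, stood at 11.73, 11.48, 11.64 and 11.23 in the abdominal and 11.91, 11.91, 12.08 and 12.02 in the thoracic arrays. All thoracic values were above all abdominal ones, and the difference was 0.46 ± 0.13 (adjusted p = 0.0485). Cnn1, calponin, which restrains myosin activity, was at 9.36, 8.96, 8.88 and 8.45 against 9.69, 9.66, 9.91 and 9.86 (0.87 ± 0.20, 1.82-fold, adjusted p = 0.0217). Smtn, smoothelin of contractile cells, was at 7.24, 6.89, 6.97 and 6.45 against 7.65, 7.70, 7.74 and 7.73 (0.82 ± 0.16, adjusted p = 0.00766), and its second probe set gave 0.44. Array 4 was the lowest abdominal array for each of these 3 genes. Synpo2, an actin-bundling protein of the Z-disc and of smooth muscle, had the smallest p of the list, at 8.39, 8.25, 8.18 and 7.84 against 8.83, 8.84, 9.01 and 8.91 (0.73 ± 0.11, adjusted p = 0.00165).

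Among the other called members, Itga8, an integrin subunit of contractile cells, differed by 0.88 ± 0.22 and Flna, the actin cross-linker filamin A, by 0.59 ± 0.13. Mylk, the kinase that activates smooth muscle myosin, differed by 0.55 ± 0.13, Myl6, an essential myosin light chain, by 0.46 ± 0.12 and Tpm1, a tropomyosin, by 0.39 ± 0.097. The PDZ and LIM domain proteins Pdlim3 and Pdlim7 differed by 0.62 ± 0.16 and 0.38 ± 0.090, and Mrvi1, a substrate of cGMP-dependent kinase, by 0.39 ± 0.10. Members with values of like size missed the threshold. Myh11, the myosin heavy chain of smooth muscle, was at 11.00, 10.90, 10.83 and 10.45 against 11.30, 11.28, 11.33 and 11.33 (0.52 ± 0.14, adjusted p = 0.0535). Tagln, the actin-binding protein SM22, differed by 0.56 ± 0.18 (adjusted p = 0.0865) and Lmod1, a nucleator of actin filaments, by 0.68 ± 0.21 (adjusted p = 0.0831). Des, desmin, differed by 0.01 ± 0.076, and its arrays overlapped. In a fit to the chow arrays alone Myh11 and Lmod1 were called (adjusted p = 0.0256 for Myh11 and 0.0461 for Lmod1). The thoracic values of Cnn1, Mylk, Tpm1, Mrvi1 and Myl6 stood in the order of the heart list mean over those arrays, and the part of heart muscle in them was not tested.

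The mean of the 29 contractile genes was 8.62, 8.51, 8.46 and 8.18 in the abdominal arrays and 8.81, 8.80, 8.94 and 8.89 in the thoracic ones. Among the abdominal arrays it was highest in array 1, where the lymph node mean was lowest (5.84), and lowest in array 4, where the lymph node mean was highest (7.35). Among the thoracic arrays it stood in the order of the heart list mean, and the part of heart muscle in it was not tested. The number of called members was 1 of 29 without abdominal arrays 2 and 4, 0 with abdominal array 1 alone, and 4 with the lymph node mean as a covariate. It was 1 with adipocyte list means as covariates and ranged from 2 (without thoracic array 4) to 13 (without abdominal array 1) with 1 array left out. It was 7 without abdominal array 2, 4 without abdominal array 3, 3 without abdominal array 4 or thoracic array 3, and 5 without thoracic array 1. Synpo2 and Smtn kept their calls with any 1 array left out. Myl6 lost its call in every such fit (adjusted p up to 0.155). Acta2, Itga8 and Pdlim3 lost theirs in all but that without abdominal array 1 (0.166, 0.116 and 0.125). Under all of these settings the differences of the 12 genes kept their sign.

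**Figure D4:**
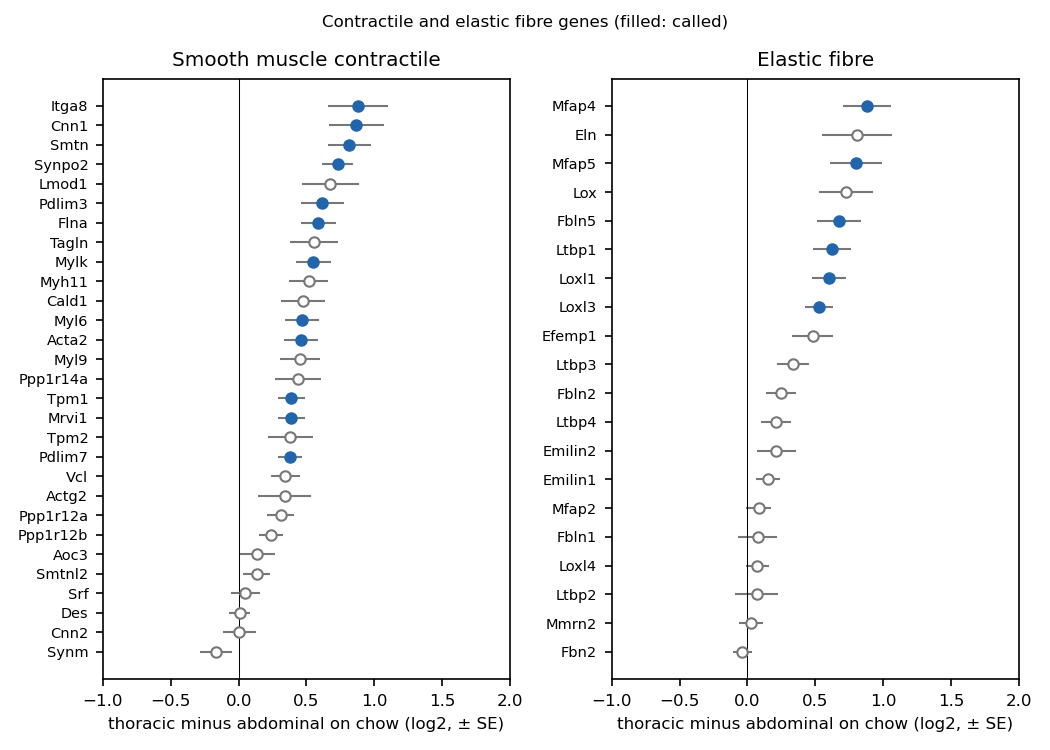
Thoracic minus abdominal difference on chow (log2, bars are SE from limma) of 29 smooth muscle contractile genes (left) and 20 elastic fibre genes (right), with filled points for called genes. Of the contractile genes 28 lie above 0 and 12 were called, and of the elastic fibre genes 19 lie above 0 and 6 were called.

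Of 20 elastic fibre genes, for the proteins that give the wall its recoil, 6 were called higher (30%, against 1.76% of all genes) and 0 lower. The other 14, Eln and Lox among them, were not called. The difference was positive in 19, with a median of 0.29. Mfap4, a glycoprotein that binds elastin and microfibrils, was at 8.21, 7.68, 7.70 and 7.52 in the abdominal and 8.57, 8.60, 8.62 and 8.85 in the thoracic arrays (0.88 ± 0.18, 1.85-fold, adjusted p = 0.00885). Mfap5, a microfibril protein that is also on the adventitial fibroblast list, was at 10.06, 9.78, 9.91 and 9.53 against 10.52, 10.39, 10.82 and 10.75 (0.80 ± 0.19, adjusted p = 0.0263). Neither gene's arrays overlapped. The thoracic values of Mfap5 stood in the order of the heart list mean, and the part of heart muscle in it was not tested. Fbln5, a fibulin needed for fibre assembly, differed by 0.68 ± 0.16 and Ltbp1, which stores latent TGF-β in the matrix, by 0.63 ± 0.14. Loxl1 and Loxl3, enzymes of the lysyl oxidase family that cross-link elastin, differed by 0.60 ± 0.13 and 0.53 ± 0.10. Eln, elastin itself, was at 8.94, 8.75, 8.77 and 8.24 against 9.26, 9.79, 9.70 and 9.18. Its groups did not overlap, but its spread was wide and its difference of 0.81 ± 0.26 missed the threshold (adjusted p = 0.0957), as did Lox by a narrow margin (0.73 ± 0.20, adjusted p = 0.05004). In a fit to the chow arrays alone both were called (adjusted p = 0.0352 for Eln and 0.0231 for Lox), and Lox also with dim genes left out (0.0415), with array weights (0.0231) and with the mean of probe sets (0.0495). The list mean was 7.66, 7.54, 7.56 and 7.37 in the abdominal and 7.87 to 7.96 in the thoracic arrays, again lowest in abdominal array 4 and highest among the abdominal arrays in array 1. Among the thoracic arrays it was highest in arrays 3 and 4, as the heart list mean was, and the part of heart muscle in it was not tested. The called members numbered 0 without abdominal arrays 2 and 4 and 0 with the adipocyte covariates, 2 with the lymph node covariate, 2 without abdominal array 4, 3 without thoracic array 3 or 4, and at most 7 with 1 array left out. Mfap4 and Loxl3 kept their calls with any 1 array left out, while Mfap5, Fbln5, Ltbp1 and Loxl1 did not.

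Other matrix genes were called in small numbers, to be read against 1.76% of all genes called higher and 3.02% lower. Of 44 collagen chains 2 were called higher and 1 lower (4.55% and 2.27%, median 0.14), of 40 proteoglycans 3 and 2 (7.5% and 5%, median 0.12), and of 49 proteases and inhibitors 3 and 0 (6.12% and 0%, median 0.09). Fmod, fibromodulin, a small proteoglycan that binds collagen fibrils, was at 7.35, 6.97, 6.78 and 6.95 in the abdominal and 7.98, 7.88, 7.81 and 7.93 in the thoracic arrays (0.88 ± 0.10, 1.85-fold, adjusted p = 0.000162). It kept its call with any 1 array left out, and a second probe set gave 0.76. The large proteoglycan Vcan, versican, differed by 0.61 ± 0.16 and the small one Epyc, epiphycan, by 0.56 ± 0.15. Col4a5 (0.53 ± 0.12) and Col4a6 (0.44 ± 0.12), which form a network of the basement membrane around smooth muscle, were higher. Of the proteases, the membrane-anchored Mmp17 (0.37 ± 0.076) and Mmp23 (0.60 ± 0.13) and the secreted Adamts8 (0.46 ± 0.12) were higher.

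The matrix genes lower in the thoracic segment were highest in the abdominal arrays with the most ganglion signal. Spock3, a proteoglycan of the testican family, was at 6.91, 6.45, 8.01 and 7.82 against 5.07, 5.02, 5.05 and 5.49 (-2.14 ± 0.27, adjusted p = 0.000352). Col28a1, a collagen of Schwann cell basement membrane, was at 5.65, 5.27, 6.56 and 6.20 against 4.41, 4.35, 4.45 and 4.07 (-1.60 ± 0.25, adjusted p = 0.00186). Spock2 differed by -0.62 ± 0.17, and its abdominal array 2 lay just within the thoracic range. For all 3, abdominal arrays 3 and 4 held the highest values, and the part of ganglion tissue was not tested. With 1 array left out, Vcan and Epyc lost their calls in every fit except that without abdominal array 1 (adjusted p up to 0.152 and 0.131). Adamts8 lost it in every fit except those without abdominal array 1 or thoracic array 2 (0.15), and Spock2 in all but those without abdominal array 1 or 2 (0.151). Col4a6 lost it without abdominal array 3 or 4 or thoracic array 1, 3 or 4 (0.148). Mmp23 lost it without abdominal array 4 or thoracic array 3 or 4 (0.0687), and Col4a5 without abdominal array 4 or thoracic array 4 (0.0645).

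Among 31 integrins and laminins 4 were called higher and 2 lower (12.9% and 6.45%, against 1.76% and 3.02% of all genes, median 0.04). Besides Itga8, the higher genes were Itga9, which pairs with β1 integrin (7.95, 7.79, 7.65 and 7.60 against 8.31, 8.33, 8.35 and 8.41, 0.60 ± 0.088, adjusted p = 0.00104), Itgb5, a receptor subunit for vitronectin (0.75 ± 0.18), and the laminin chain Lamc3 (0.44 ± 0.098). Itga2, the collagen-binding subunit, was lower (6.99, 7.25, 7.52 and 7.88 against 6.40, 6.08, 6.32 and 6.59, -1.07 ± 0.20, adjusted p = 0.00509), and so was Itgb8, a subunit that activates TGF-β (-0.74 ± 0.16). Both lower genes were highest in abdominal arrays 3 and 4, and the part of ganglion tissue was not tested. The calls of Itga9, Itga2 and Itgb8 held with any 1 array left out. That of Itga2 was lost with the adipocyte covariates. Itgb5 lost its call without abdominal array 3 or 4 or thoracic array 1, 3 or 4 (adjusted p up to 0.0824), and Lamc3 without abdominal array 3 or thoracic array 1 or 4 (0.0555).

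Of 58 TGF-β and BMP genes 1 was called higher and 1 lower (1.72% each, against 1.76% and 3.02% of all genes), and of 26 Notch genes 1 higher and 0 lower (3.85% and 0%). The higher ligand was Tgfb2, transforming growth factor β2, at 7.50, 7.19, 7.13 and 7.08 in the abdominal and 7.88, 8.06, 7.94 and 8.23 in the thoracic arrays (0.80 ± 0.19, adjusted p = 0.0236). Of 58 Wnt genes 3 were called higher and 2 lower (5.17% and 3.45%, median 0.09). Sfrp2, a secreted protein that modulates Wnt ligands, was at 7.88, 8.01, 7.56 and 7.48 against 8.54, 8.46, 8.77 and 8.73 (0.89 ± 0.14, adjusted p = 0.00142), and its second probe set gave 0.49. The thoracic values of Sfrp2 stood in the order of the heart list mean, and the part of heart muscle in it was not tested. The related Sfrp1 (0.61 ± 0.14) and Lgr6, a receptor for R-spondins (0.63 ± 0.12), were higher as well. In contrast, Sfrp5 of the same family was lower (5.47, 5.67, 5.85 and 5.59 against 4.71, 5.03, 4.56 and 4.77, -0.88 ± 0.13, adjusted p = 0.00102), and so was the Wnt receptor Fzd3 (-0.85 ± 0.15), which was highest in abdominal arrays 3 and 4. The Sfrp2 and Sfrp5 groups did not overlap, and those calls, with those of Lgr6 and Fzd3, held with any 1 array left out. Those of Sfrp1 (without abdominal array 2 or 4 or thoracic array 1 or 4, adjusted p up to 0.0883) and Tgfb2 (without abdominal array 3 or 4 or thoracic array 2 or 4, 0.0824) did not. Lgr6 lost its call without abdominal arrays 2 and 4 together, and with the adipocyte covariates.

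Of 46 hedgehog and FGF genes 3 were called higher and 1 lower (6.52% and 2.17%, against 1.76% and 3.02% of all genes). The growth factors Fgf18 (0.46 ± 0.099), Fgf9 (0.53 ± 0.13) and Fgf16 (0.57 ± 0.15) were higher, and Fgf10, a mesenchymal ligand that acts on epithelium and fat precursors, was lower. Fgf10 stood at 6.31, 6.55, 6.23 and 6.39 against 5.84, 5.51, 5.88 and 5.81 (-0.61 ± 0.10, adjusted p = 0.00312), and its second probe set also gave -0.61. Its abdominal values were highest in arrays 2 and 4, as the lymph node mean was. It lost its call without those 2 arrays and with the adipocyte covariates, and kept it with the lymph node mean as a covariate. Fgf18 lost its call without abdominal array 4 (adjusted p = 0.0551), Fgf9 without abdominal array 2 or 4 or thoracic array 1 or 4 (up to 0.0876), and Fgf16 in every fit with 1 array left out except those without abdominal array 3 or thoracic array 1 (up to 0.124).

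Of 68 genes of the axon guidance families 1 was called higher and 5 lower, 7.35% against 3.02% of all genes. The higher gene was Sema3a, a secreted repellent of sensory and sympathetic axons, at 6.06, 5.92, 5.70 and 5.66 in the abdominal and 6.40, 6.25, 6.70 and 6.62 in the thoracic arrays (0.66 ± 0.12, adjusted p = 0.00566). The lower ones included Plxnc1, a semaphorin receptor (7.31, 7.79, 8.26 and 8.58 against 5.89, 6.01, 5.94 and 5.98, -2.03 ± 0.24, adjusted p = 0.000186), and Epha5, an ephrin receptor of neurons (6.76, 6.45, 7.90 and 7.46 against 5.27, 5.33, 5.52 and 5.80, -1.66 ± 0.25, adjusted p = 0.00112). Sema6d (-0.83 ± 0.15) and the netrin-related Ntng1 (-0.77 ± 0.13) were lower too. The 4 lower genes named here were highest in abdominal arrays 3 and 4, as the ganglion mean was, whose part in them was not tested. The thoracic values of Sema3a stood in the order of the heart list mean, and the part of heart muscle in it was not tested.

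Receptors for vasoactive ligands, which set vessel tone, gave calls in both directions, 3 higher and 4 lower of 59 (median 0.04). These were shares of 5.08% and 6.78%, against 1.76% and 3.02% of all genes. Htr2a, the serotonin receptor of arterial contraction, was at 6.82, 6.78, 6.68 and 6.28 in the abdominal and 7.11, 7.12, 7.58 and 7.31 in the thoracic arrays (0.64 ± 0.15, adjusted p = 0.0217). A second serotonin receptor, Htr1b (0.57 ± 0.15), and the thrombin receptor F2r (0.32 ± 0.070) were also higher. S1pr3, a receptor for sphingosine 1-phosphate, was lower by the widest margin, at 6.88, 7.54, 7.82 and 8.00 against 5.93, 6.50, 6.23 and 5.65 (-1.48 ± 0.26, adjusted p = 0.00365). Rxfp1, the relaxin receptor (-1.13 ± 0.28), Ptger3, a prostaglandin E2 receptor (-0.47 ± 0.093), and Lpar1, a lysophosphatidic acid receptor (-0.34 ± 0.093), were lower. Agtr1a, the main angiotensin II receptor, was not called, and its arrays overlapped (7.79, 7.44, 8.47 and 8.34 against 7.47, 7.25, 7.61 and 7.44, adjusted p = 0.11). S1pr3, Rxfp1, Lpar1 and Agtr1a were highest in abdominal arrays 3 and 4, as the ganglion mean was, and Ptger3 in array 1. The part of ganglion tissue was not tested. The calls of S1pr3 and Ptger3 held with any 1 array left out. That of S1pr3 was lost without abdominal arrays 2 and 4 together, and with the adipocyte covariates. Htr1b lost its call in every such fit except that without abdominal array 1 (adjusted p up to 0.16), and Rxfp1 and Lpar1 in every one except those without abdominal array 1 or 2 (0.123 and 0.131). Htr2a lost it without abdominal array 4 or thoracic array 3 or 4 (0.0801), and F2r without abdominal array 3 or 4 (0.0528).

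Ptgis, the synthase of the vessel-relaxing prostacyclin, was among the 20 largest higher differences, at 8.12, 7.79, 7.91 and 7.21 against 8.66, 8.59, 8.66 and 8.77 (0.91 ± 0.21, adjusted p = 0.0221). Of 191 ion channel genes 3 were called higher and 17 lower (1.57% and 8.9%, against 1.76% and 3.02% of all genes). Kcnmb1, the smooth muscle subunit of the calcium-activated potassium channel, was at 8.93, 8.66, 8.94 and 8.10 against 9.46, 9.22, 9.85 and 9.63 (0.88 ± 0.21, adjusted p = 0.0256), and Kcnj15, an inward rectifier, differed by 0.41 ± 0.076. The lower channels named here are best known in nerve and glia. Kcnq3, a subunit of the neuronal M current, differed by -1.49 ± 0.25, and Scn7a, a sodium channel of glia and neurons, by -0.94 ± 0.14. Kcna1, a potassium channel of axons, differed by -0.83 ± 0.12 and Gjc3, a connexin of Schwann cells, by -1.34 ± 0.23. Kcnq3, Kcna1, Gjc3 and Scn7a were highest in abdominal arrays 3 and 4, with values of 7.07, 6.86, 8.31 and 7.79 for Kcnq3 and a narrower spread for Scn7a (10.11, 9.97, 10.26 and 10.18 against 9.34, 9.02, 9.20 and 9.22). Ptgis and Kcnmb1 lost their calls without abdominal array 4 or thoracic array 1, 3 or 4 (adjusted p up to 0.0777 and 0.0882). The thoracic values of Kcnmb1 stood in the order of the heart list mean, and the part of heart muscle in it was not tested.

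Of 34 genes of phosphate handling and calcification, the subject of the study's diet, 1 was called higher (2.94%, against 1.76% of all genes) and 0 lower (median 0.13). That gene was Sost, sclerostin, a secreted Wnt antagonist best known in bone, at 6.23, 5.67, 5.86 and 5.62 in the abdominal and 6.53, 6.56, 6.66 and 6.67 in the thoracic arrays (0.76 ± 0.17, adjusted p = 0.0185). It lost its call without abdominal array 4 or thoracic array 3 or 4 (adjusted p up to 0.0731). The phosphate carriers Slc20a1 (7.75, 7.85, 7.56 and 8.19 against 7.46, 7.61, 7.26 and 7.39, -0.41 ± 0.15, adjusted p = 0.136) and Slc20a2 (0.31 ± 0.13, adjusted p = 0.22) were not called. Mgp, matrix Gla protein, an inhibitor of vessel calcification, was at 12.12, 12.02, 12.10 and 11.65 against 12.14, 12.10, 12.45 and 12.29 and was not called either (0.27 ± 0.12, adjusted p = 0.244). The arrays of these 3 genes overlapped between segments.

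The largest higher differences outside the ganglion, heart and lymph node lists were led by Mybphl, a myosin-binding protein of atrial muscle (probe set 17401699), at 4.86, 5.29, 5.17 and 4.79 in the abdominal and 6.82, 6.62, 7.66 and 7.21 in the thoracic arrays. The difference was 2.05 ± 0.23, 4.14-fold higher (adjusted p = 0.000131), with no overlap. Mhrt, a long RNA transcribed against the cardiac myosin gene Myh7, was at 5.69, 5.75, 6.02 and 5.51 against 7.24, 7.02, 7.74 and 7.41 (1.61 ± 0.17, adjusted p = 8.95e-05). Whether its probes also read the overlapping myosin transcript was not tested. Casq1, the calcium store protein calsequestrin of striated muscle, was at 7.49, 6.42, 6.36 and 6.60 against 8.18, 8.04, 8.56 and 8.30 (1.56 ± 0.24, adjusted p = 0.00153). Muscle proteins Smpx (1.10 ± 0.17) and Mlip (0.91 ± 0.14) and the myosin kinase relative Mylk4 (1.13 ± 0.20) were higher, as were Lrrc2 (0.99 ± 0.20), Yipf7 (0.94 ± 0.23), Sh3rf2 (1.10 ± 0.19) and the LIM protein Lmcd1 (0.94 ± 0.22). Mybphl, Mhrt, Casq1, Smpx, Mlip, Lrrc2 and Yipf7 were each highest in thoracic array 3 and lowest among the thoracic arrays in array 2, the order of the heart list mean in those arrays. The part of heart muscle in these genes was not tested.

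Further genes of this group have other known roles. Neto1, an auxiliary subunit of glutamate receptors, was at 6.44, 5.45, 6.003 and 5.10 against 7.35, 7.15, 7.69 and 7.47 (1.67 ± 0.28, adjusted p = 0.00283), and Vtcn1, a ligand that restrains T cells, at 5.92 to 6.92 against 7.43, 7.33, 7.94 and 7.66 (1.30 ± 0.24, adjusted p = 0.00525). Both were lowest in abdominal array 4, and the segments did not overlap. The thoracic values of Neto1, Vtcn1, Npnt, Ppef1 and Gbp8 stood in the order of the heart list mean, and the part of heart muscle was not tested. Npnt, nephronectin, a matrix ligand of the integrin that contains Itga8, was at 9.19 ± 0.49 against 10.28 ± 0.21 (SD, n = 4 each; 1.09 ± 0.26, adjusted p = 0.0261). Alox15, a lipoxygenase that acts on arachidonic acid, was at 6.93, 6.44, 6.86 and 6.31 against 7.09, 7.36, 9.10 and 8.34, with thoracic arrays 3 and 4 well above 1 and 2 (1.34 ± 0.36, adjusted p = 0.0477). Ppef1, a calcium-binding phosphatase, differed by 1.27 ± 0.28, Cbr2, a carbonyl reductase, by 0.95 ± 0.19 and Mia, a secreted protein of cartilage and melanoma cells, by 0.93 ± 0.16. Gbp8, an interferon-inducible GTPase, differed by 1.24 ± 0.24, which is uncertain because near-identical family members may share its probes. Alox15 lost its call without abdominal array 2, 3 or 4 or thoracic array 3 or 4 (adjusted p up to 0.15), and Npnt without abdominal array 2 or 4 or thoracic array 1, 3 or 4 (0.094). Ppef1 lost it without abdominal array 4 or thoracic array 3 or 4 (0.066), Lmcd1 without abdominal array 3 or 4 or thoracic array 1 or 4 (0.0884), and Yipf7 without abdominal array 3 or 4 or thoracic array 1, 3 or 4 (0.0854).

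Of 13 measured genes of mesothelium, the lining of the chest and belly cavities, 3 were called higher (23.1%, against 1.76% of all genes). All 13 had a positive difference. Upk3b, a uroplakin of mesothelial cells, was at 6.13, 5.96, 6.36 and 6.07 in the abdominal and 7.55, 6.85, 7.21 and 7.60 in the thoracic arrays (1.17 ± 0.18, adjusted p = 0.00165), and its call held with any 1 array left out. It was lost with the adipocyte covariates. Bnc1, a zinc finger factor of mesothelium (0.62 ± 0.15), and Lrrn4, a surface marker of mesothelium (0.78 ± 0.21), were higher too. Bnc1 lost its call without abdominal array 4 or thoracic array 1 or 4 (adjusted p up to 0.084) and Lrrn4 in every fit with 1 array left out except that without abdominal array 1 (0.121).

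The largest lower differences outside those 3 lists included genes best known in neurons and glia. Fabp7, a fatty acid binding protein of glia (probe set 17233384), was at 8.74, 8.19, 9.99 and 9.61 in the abdominal and 5.11, 5.40, 6.45 and 5.92 in the thoracic arrays, 10.7-fold lower (-3.41 ± 0.39, adjusted p = 0.000156). Rit2, a small GTPase of neurons, was at 7.84, 7.56, 9.34 and 9.09 against 4.61, 5.16, 5.57 and 5.69 (-3.20 ± 0.40), and the scaffold Cnksr2 at 8.50, 7.94, 9.72 and 9.31 against 5.91, 6.03, 5.74 and 5.52 (-3.07 ± 0.35). For all 3, abdominal arrays 3 and 4 stood above arrays 1 and 2, as the ganglion mean did. The adhesion molecules Chl1 (-3.01 ± 0.31) and Ncam2 (-2.86 ± 0.37), the calcium sensor Vsnl1 (-2.69 ± 0.35) and the vesicle fusion factor Napb (-2.63 ± 0.33) were lower. So were Slc35f1 (-2.97 ± 0.30), Pirt, a regulator of sensory neuron channels (-2.35 ± 0.35), Adgrb3, an adhesion receptor of synapses (-2.21 ± 0.33), Rab6b, a GTPase of neuronal transport (-2.13 ± 0.30, and -3.36 by its second probe set), Vwc2l (-2.19 ± 0.33) and Stk32a (-2.12 ± 0.30). Cdr1 differed by -2.29 ± 0.35, though the circular RNA transcribed against it could not be told apart from it here. Pcbd1, a cofactor-recycling enzyme of aromatic amino acid hydroxylation, was at 7.52, 6.88, 9.003 and 8.56 against 5.05, 5.17, 5.28 and 5.16 (-2.83 ± 0.36, adjusted p = 0.000344). Every gene named in these sentences kept its call with any 1 array left out, and each was higher in abdominal arrays 3 and 4 than in 1 and 2. The part of ganglion tissue in them was not tested.

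Of the Schwann cell list, Cdh19, a cadherin of that lineage, was at 7.81, 7.99, 8.85 and 8.68 in the abdominal and 5.48, 5.94, 5.52 and 5.60 in the thoracic arrays (-2.70 ± 0.25, 6.49-fold lower, adjusted p = 3.67e-05). Mal, a protein of myelin membranes, was at 7.59, 7.49, 7.99 and 8.11 against 6.41, 6.26, 6.30 and 6.38 (-1.45 ± 0.14, adjusted p = 4.74e-05), and Mbp, myelin basic protein, differed by -0.56 ± 0.11. For Cdh19 and Mal every abdominal array lay well above every thoracic one, with arrays 3 and 4 highest, and the part of ganglion tissue was not tested.

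Klk1, the tissue kallikrein that releases kinins from kininogen (probe set 17477391), was at 7.94, 7.88, 8.35 and 8.23 in the abdominal and 5.48, 4.79, 5.97 and 4.81 in the thoracic arrays. Its abdominal values were highest in arrays 3 and 4, as the ganglion mean was, whose part in it was not tested. The difference was -2.84 ± 0.26, 7.14-fold lower (adjusted p = 3.37e-05), and its call held under every alternative that was run. On the high-phosphate diet both segments gave lower signals, 5.95 to 6.90 in the abdominal and 3.94 to 4.67 in the thoracic arrays. The mouse genome holds near-identical kallikrein genes, so the signal may not be that of Klk1 alone. Cyp2j9, a cytochrome P450 with close relatives, was at 7.20, 7.09, 7.68 and 7.59 against 5.87, 5.99, 6.41 and 5.79 (-1.37 ± 0.19, adjusted p = 0.000644) and is uncertain for the same reason. It too was highest in abdominal arrays 3 and 4. Among 89 P450 genes 1 was called higher and 1 lower (1.12% each, against 1.76% and 3.02% of all genes).

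Of 54 chemokines and receptors 1 was called higher and 2 lower (1.85% and 3.7%, against 1.76% and 3.02% of all genes, median -0.05), and these 2 were Ackr1, the scavenging receptor of venules (6.35, 6.45, 6.98 and 6.80 against 5.97, 5.55, 6.08 and 5.94, -0.76 ± 0.15, adjusted p = 0.00807), and Cxcr4 (-0.80 ± 0.18). Both were highest in abdominal arrays 3 and 4. Plvap, a protein of fenestrated and venous endothelium, was the called member of 17 endothelial genes (5.88%), at 6.80, 6.68, 6.64 and 6.86 against 6.20, 6.29, 6.33 and 6.28 (-0.47 ± 0.091, adjusted p = 0.00766). Of 7 lymphatic endothelium genes 1 was called lower and 0 higher (14.3% and 0%, median -0.16), and 2 had a positive difference. The limma p before adjustment was below 0.05 for 2 members that were higher and 2 that were lower. The called member was Prox1, the master factor of lymphatic endothelium (6.24, 6.42, 5.94 and 6.86 against 5.43, 5.66, 5.80 and 5.52, -0.76 ± 0.18). It was highest in abdominal arrays 4 and 2, as the lymph node mean was, and was not called with that mean as a covariate. Cpa3, a protease of mast cells, was lower too (-0.51 ± 0.14) and was the called member of 9 mast cell genes (11.1%). Crabp1, a retinoic acid binding protein, was the called member of 27 retinoid genes (3.7%) and differed by -0.88 ± 0.20. Myh2, a myosin of fast skeletal muscle, differed by -1.17 ± 0.32 with overlapping arrays (6.57, 6.36, 5.02 and 6.77 against 5.07, 5.30, 4.54 and 5.11), and abdominal array 3 was within the thoracic range. Prox1 lost its call without abdominal array 2 or 4 or thoracic array 1, 2 or 4 (adjusted p up to 0.0879), Cxcr4 without abdominal array 3 or 4 or thoracic array 2 or 4 (0.0687) and Crabp1 without abdominal array 3 or thoracic array 2 or 4 (0.0596). Myh2 and Cpa3 lost theirs in every fit with 1 array left out except that without abdominal array 3 (0.168 and 0.115).

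Metabolic, cell cycle and clock genes gave no calls between the segments on chow. Limma called 0 of 31 oxidative phosphorylation genes, 0 of 22 fatty acid oxidation genes, 0 of 16 lipogenesis genes, 0 of 28 cell cycle genes and 0 of 17 clock genes. An unadjusted p below 0.05 was found for 15, 3, 0, 1 and 0 of them, and for 4311 of all 22180 genes. Of all genes 4.78% were called, so 0 calls in lists of these sizes does not show that the segments were alike. All 31 oxidative phosphorylation genes had a positive difference, with a median of 0.21, against 0.03 over all genes. The 11 brown adipocyte genes, for the heat-producing fat around the thoracic aorta, all had a positive difference, with a median of 0.26. Only 1 of them was called higher (9.09%, against 1.76% of all genes). That was Prdm16, the transcription factor of the brown fat lineage (6.93, 6.37, 6.87 and 6.63 against 7.03, 7.12, 7.16 and 7.21, 0.43 ± 0.10, adjusted p = 0.0279), whose second probe set gave 0.25. The brown adipocyte means were 8.28 to 8.69 in the abdominal and 8.68 to 8.89 in the thoracic arrays. Of 12 heat shock genes 1 was called higher (8.33%), the small chaperone Cryab, also abundant in heart muscle (9.86, 9.72, 9.68 and 9.79 against 10.59, 10.06, 10.93 and 10.92, 0.86 ± 0.20, adjusted p = 0.0244). The thoracic values of Cryab stood in the order of the heart list mean, and the part of heart muscle in it was not tested. Prdm16 lost its call without abdominal array 2 or 4 or thoracic array 2, 3 or 4 (adjusted p up to 0.093) and Cryab without abdominal array 3 or 4 or thoracic array 1, 3 or 4 (0.0848).

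The segments were also compared on the high-phosphate diet, in arrays that share no tissue sample with the chow arrays, though limma's estimate of the spread came from all 15. There limma called 3067 genes (13.8%), 1680 higher and 1387 lower in the thoracic segment. Of the 1061 genes called on chow, 1039 had the same sign and 813 (76.6%) were called with it, while 0 were called with the opposite sign. Hoxc8 differed by -0.82 ± 0.13 (adjusted p = 0.00101), Klk1 by -2.08 ± 0.29 (0.000418), Fmod by 0.72 ± 0.11 (0.000907) and Sfrp2 by 1.39 ± 0.15 (7.82e-05). The median was 0.76 for the contractile and 0.54 for the elastic fibre list, and Acta2 (0.81 ± 0.14), Myh11 (0.78 ± 0.16) and Eln (1.27 ± 0.28) were all called, with adjusted p of 0.00148, 0.00442 and 0.00885. Of the 131 called genes named here or below 130 had the same sign, the exception being Myh2 (0.12 ± 0.34). Among those not called there were Hoxd8 (-0.15 ± 0.12), Tshz2 (-0.09 ± 0.081), Mmp17 (0.07 ± 0.082) and Cpa3 (-0.08 ± 0.15). These arrays held neighbouring tissue as well, with ganglion means of 7.06 to 7.36 in the abdominal arrays and 5.73, 6.18 and 5.80 in the thoracic ones, and lymph node means of 7.59, 7.57, 6.09 and 7.11 against 5.83 to 5.88. Liver genes averaged 5.39, 5.49, 8.17 and 9.95 in the abdominal arrays, against 5.44 to 5.48 in the thoracic ones. The mean of 9 squamous epithelium genes was 7.86 in thoracic array 3, against 4.75 in array 1 and 4.83 in array 2.

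**Figure D5:**
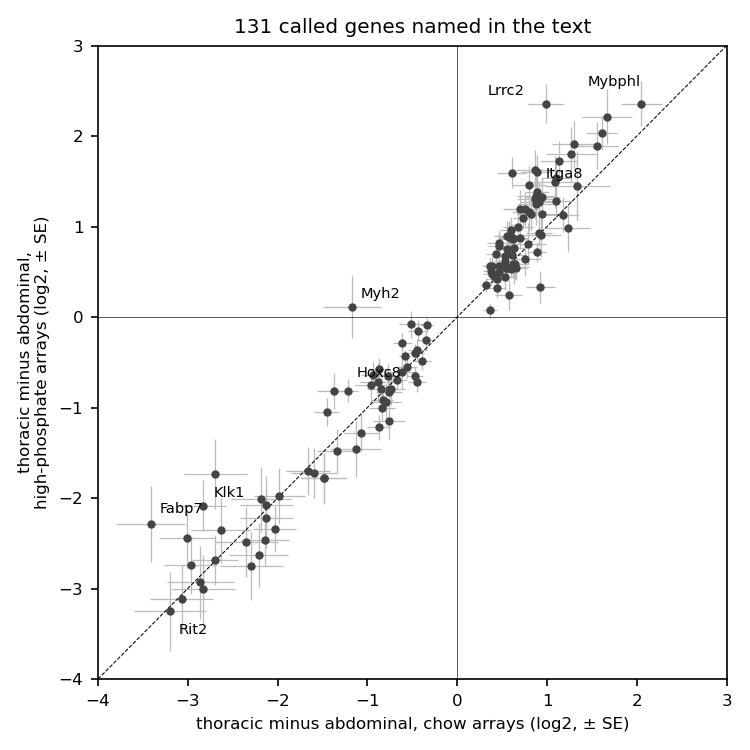
Thoracic minus abdominal difference on the high-phosphate diet against that on chow (log2, bars are SE from limma) for the 131 called genes named in the text, with a dashed line of equality. All but Myh2 lie in the lower left or upper right, with the same sign on both diets. The estimates of Fabp7 and Hoxc8 are smaller on high phosphate than on chow and that of Lrrc2 is larger. The test of dependence on diet called 0 of 22180 genes.

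Whether the segment difference itself depended on diet was tested as an interaction. Limma called 0 of 22180 genes (lowest adjusted p = 0.705), and 1217 (5.49%) had an unadjusted p below 0.05. Lrrc2 differed by 0.99 ± 0.20 on chow and 2.36 ± 0.22 on high phosphate (unadjusted p = 0.000367, adjusted p = 0.705 by limma). Vcan differed by 0.61 ± 0.16 and 1.59 ± 0.17 (unadjusted p = 0.000857, adjusted p = 0.773). A dependence on diet was thus not detectable with these arrays for any single gene, which does not show that the segments differ alike on both diets.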

How the data were processed

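RNA of mouse aorta was hybridised to 15 arrays, 1 biotin-labelled sample each. The authors deposited 1 normalised value per probe set and array. RMA and Partek are named, without versions, in the submitters' processing notes. The deposited values were read as log2 intensities because they run from 1.381 to 13.33. The array annotation's genome build is not given in the sources used here, so no gene positions are printed except those of promoters, which come from RefSeq's GRCm38.p6. Signal over background is not known, and precision is limited by how few arrays there are.

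Of 41345 probe sets, 25335 had an annotation entry, 23521 with a single symbol and 1814 with several. For 1082 genes with several probe sets the brightest over all 15 arrays was used, which gave 22180 genes, with no filter on dim ones. Of these, 22139 symbols matched RefSeq. Groups came from the titles. A model with 4 group means was fitted to all 15 arrays (limma 3.58.1 under R 4.3.3; functions lmFit and eBayes, variance trend on; 11 residual and a median of 3.901 prior degrees of freedom). The data.table package (1.17.8), pandas 2.3.3 and matplotlib 3.10.9 were used for tables and plots. The pipeline was checked on simulated data.

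Genes were named by a rule: the 20 largest called differences in each direction among non-overlapping genes, leaving out ganglion, heart and lymph node lists and predicted, small RNA and receptor-segment genes (136 called genes were of such classes), plus up to 4 called members of each list in each direction, and any member of the Hox, regional factor, contractile, elastic fibre, vasoactive and phosphate lists. Up to 4 genes of the 3 tissue lists were allowed as values beside the results. The genes, lists, tests and alternatives were chosen with earlier results of these data known. Replicate numbers were not treated as pairs. The alternatives were other variance priors, filters, normalizations, array weights, probe set rules, a replicate block, covariates for lymph node and adipocyte signal, and leaving out arrays.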

Additional observations from a re-analysis of the deposited data

Results flagged for a closer look

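Within a group of 4 arrays, 8 groups of values held a highest or lowest array set apart from the other 3 by Dixon's criterion, which chance meets in about 1 of 20 groups, and 326 groups were looked at. Among the abdominal chow arrays, Nr2f2 was at 7.42 in array 2, against at most 7.13 in the other arrays, Tagln at 9.09 in array 4, against at least 9.56, and Fgf18 at 6.42 in array 4, against at least 6.62. Among the thoracic chow arrays, Hoxb7 was at 5.44 in array 4, against at least 5.76, and Tshz2 at 8.48 in array 2, against at most 8.29. Spock3 was at 5.49 in thoracic array 4, against at most 5.07. Of the marker lists, the lung epithelium mean was 6.18 in thoracic array 3, against at most 5.03, and the skeletal muscle mean was 6.38 in the same array, against at most 5.60.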

How the results depend on the processing

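No called gene named here changed sign under any alternative that could test it. Of the 131, 60 lost the call with at least 1 of the 8 chow arrays left out, and 24 kept it under every alternative. The count of 1061 called genes (391 higher, 670 lower, 6 Hox, 12 contractile, 6 elastic fibre) became 557 (97 higher; 1 contractile, 0 elastic fibre) without abdominal chow arrays 2 and 4, and 147 (19 higher, 128 lower; 0 contractile, 0 elastic fibre) with abdominal chow array 1 alone, whose spread was assumed to be that of the other groups. In that last fit the interaction with diet called 1 gene. The count was 565 (140 higher, 425 lower; 4 contractile, 2 elastic fibre) with the lymph node mean as a covariate, 437 (69 higher, 368 lower; 1 contractile, 0 elastic fibre) with the adipocyte means, and 297 (45 higher, 252 lower) with at least 2-fold required. With 1 array left out it ranged from 500 (without abdominal array 4) to 1369 (without abdominal array 1), the higher genes from 140 to 539, the lower from 360 to 830, the contractile from 2 to 13 and the elastic fibre from 2 to 7. The other alternatives stayed within 1.5 times of these counts. Of the other lists counted, ion channels went from 20 called to 10 with the chow arrays alone, proteoglycans from 5 to 3 with quantile normalization and with the replicate block, and mesothelium from 3 to 5 with the block. The Schwann cell, mesothelium, ion channel, vasoactive, integrin and laminin, regional factor, protease, Wnt and proteoglycan counts each fell by over 1.5 times in at least 3 of the 4 settings of both covariates, arrays 2 and 4 left out and array 1 alone. Calls were also gained. Myh11 was called with dim genes left out (adjusted p = 0.0436) and with array weights (0.0287), and with the replicate block Hoxb4 (0.0331), Tagln (0.0362), Lmod1 (0.0464), Eln (0.0106) and Lox (0.0387) were called. After removal of group means, same-numbered arrays of the 2 segments correlated at 0.03 to 0.069 on chow. The highest correlations with another number were 0.0054 to 0.14. On high phosphate the same-numbered correlations were 0.054 to 0.1, and the highest others -0.035 to -0.033. Whether same-numbered arrays were pairs cannot be told from such values. A fit with the replicate number as a block called 975 genes (345 higher, 630 lower), 6 Hox, 12 contractile, 8 elastic fibre and 0 in the interaction. Quantile normalization and median centring moved the median difference of all genes by under 0.01. The cause of lost calls was not tested.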

Other observations

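The shares of called genes in 4 further lists are to be read against 1.76% of all genes called higher and 3.02% lower. Of 26 interferon-inducible genes 1 was called lower (3.85%) and 23 had a negative difference, with a median of -0.29. Their list mean was 6.57, 6.94, 6.70 and 7.19 in the abdominal arrays and 6.43 to 6.60 in the thoracic ones, highest in abdominal arrays 2 and 4, as the lymph node mean was. The called member was Stat2, a transcription factor of the interferon response, at 6.96, 7.15, 7.08 and 7.41 against 6.67, 6.79, 6.58 and 6.77 (-0.45 ± 0.11, limma adjusted p = 0.0257). It was not called with the lymph node mean as a covariate, nor without abdominal array 4 or thoracic array 1, 3 or 4 (adjusted p up to 0.094).

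Of 28 complement and coagulation genes 2 were called higher (7.14%), the thrombin receptor F2r and C4b, a complement component, at 7.52, 7.59, 7.69 and 7.88 against 8.27, 8.16, 8.41 and 8.35 (0.63 ± 0.17, adjusted p = 0.0478). C4b is uncertain, since near-identical gene copies may share its probes, and it lost its call with any 1 array left out (adjusted p up to 0.115). The thoracic values of C4b stood in the order of the heart list mean, and the part of heart muscle in it was not tested. Of 72 claudins and keratins, proteins of cell junctions and of the epithelial skeleton, 1 was called higher (1.39%), Cldn10 (5.47, 5.56, 5.87 and 5.72 against 6.18, 5.95, 6.17 and 6.54, 0.56 ± 0.12, adjusted p = 0.0173), and 1 lower, Cldn1 (7.90, 7.65, 7.87 and 7.75 against 7.55, 7.17, 7.41 and 7.49, -0.39 ± 0.097, adjusted p = 0.0328). Cldn10 lost its call without thoracic array 4 (0.0544) and Cldn1 with any array left out other than abdominal array 2 or thoracic array 1 (0.0894). Lrp2, the endocytic receptor megalin, was the called member of 11 kidney tubule genes (9.09%), at 5.14, 4.77, 4.95 and 5.00 against 5.69, 5.56, 5.50 and 5.92 (0.70 ± 0.10, adjusted p = 0.00127), and its call held with any 1 array left out.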
